A study of Mus musculus with 2 samples.

Results

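The 8 genes described here are Eda2r, the receptor for one form of ectodysplasin, with its ligand Eda, the related receptors Edar and Tnfrsf19, and Traf3, Map3k14, Nfkb2 and Relb of the noncanonical NF-kB pathway. They were chosen by gene symbol, with the level of Eda2r in these libraries already known, and all 8 were found among the 55536 genes of the deposited gene table. The libraries hold total RNA of gastrocnemius, a muscle of the calf, from female B6CASTF1/J mice, the F1 cross of C57BL/6J and CAST/EiJ, at 18 to 20 months of age. The labels give 1 group of 2 biological replicates from separate tissue samples, each made from 300 ng of RNA with synthetic ERCC transcripts added as spike-ins. There was no young, treated or mutant group, so each gene is described by its level in each library and by the difference between the libraries, with no p-value. The donor identifier is shared by both libraries and the labels do not state that they came from separate animals.

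Ectodysplasin is a member of the TNF family that is made in splice forms. The A1 form binds Edar, which works through its adaptor Edaradd in the development of hair, teeth and sweat glands, and the slightly shorter A2 form binds Eda2r. In the noncanonical NF-kB pathway, Traf3 with Traf2, Birc2 and Birc3 keeps the kinase NIK, the product of Map3k14, at a low level by marking it for degradation. When a receptor takes up Traf3, NIK accumulates and activates the kinase IKK alpha (Chuk), p100, the product of Nfkb2, is processed to p52, and p52 enters the nucleus with RelB. Eda2r is known as a target gene of p53 and as a receptor whose signalling through NIK has been tied to muscle wasting.

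Expected counts over all genes summed to 38654555 in replicate 1 and 43722892 in replicate 2, and a count of 0 allowed up to 3 counts, or 0.0776 and 0.0686 CPM (counts scaled to the library total). Markers of the labelled tissue were abundant, with Acta1, the skeletal muscle actin, at 21825 and 23051 TPM (a level scaled for transcript length and library size). The libraries stood apart in slow fibre genes, a list of 7 that was added after the data were seen. These genes summed to 399 TPM in replicate 1 and 2152 TPM in replicate 2. All 7 were at least 2-fold higher in replicate 2, where 2.7% of all tested genes were. Of the keratinocyte genes, Krt5 and Krt14 were at 0 TPM in replicate 1 and at most 0.06 TPM in replicate 2, while Krt10 was at 1.14 and 1.34 TPM, most of the list's sum of 1.15 and 1.48 TPM. The B cell markers summed to 0.36 and 0.09 TPM. Of the T cell markers, Cd3e, Cd3g and Cd8a had no expected counts, and Cd4 was at 0.15 and 0.18 TPM, from 4 and 5 counts. Kallisto, a second quantifier, gave Cd8a 0.179 and 0.296 TPM. In a piece of tissue, fewer cells of a type and less RNA per cell cannot be told apart.

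Eda2r (ENSMUSG00000034457.10, mm10 chromosome X, 97333840 to 97377216, minus strand) was the gene of the 8 that differed most between the libraries. Its level was 27.3 TPM in replicate 1, from 2413 counts, and 4.74 TPM in replicate 2, from 504 counts. The mean was 16.0 ± 16.0 TPM (SD, n = 2), so the SD was as large as the mean. The bounds that RSEM, the quantifier, gives with its estimates were 24.6 to 28.8 TPM and 3.95 to 5.57 TPM, and they did not overlap. After TMM scaling the gene was 4.89-fold lower in replicate 2, with a 95% counting interval of 4.44 to 5.39. This interval covers counting error only. The other quantifier, kallisto, gave 28.3 and 4.87 TPM, the same order at almost the same levels.

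**Figure D1:**
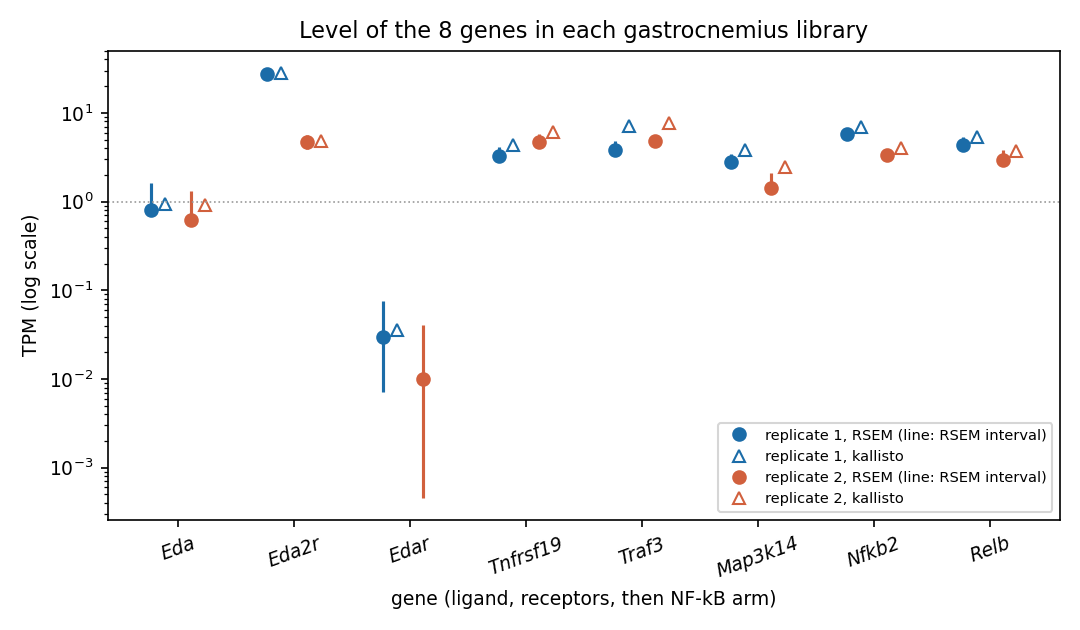
Level of each of the 8 genes in TPM (log axis) in replicate 1 (blue) and replicate 2 (orange), as RSEM estimates with RSEM's own interval (filled points, lines) and as kallisto estimates (open triangles). The dotted line is 1 TPM. The Eda point of replicate 2, at 0.62 TPM, lies below its RSEM interval of 0.655 to 1.31 TPM. Eda2r lies at 27.3 TPM in replicate 1 and 4.74 TPM in replicate 2, Edar lies at or below 0.0357 TPM, and kallisto's value of 0 for Edar in replicate 2 is not drawn.

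In replicate 1, 90.7% of protein-coding genes had a lower TPM than Eda2r, and in replicate 2, 70.0% did. It made up 56.8% of the summed TPM of the 8 genes in replicate 1 (48.1 TPM) and 21% in replicate 2 (22.6 TPM). The order of the genes therefore changed with the library. In replicate 1 Eda2r stood alone at the top, ahead of Nfkb2 at 5.71 TPM. In replicate 2 Traf3 (4.77 TPM), Eda2r (4.74 TPM) and Tnfrsf19 (4.72 TPM) were level, and their RSEM intervals overlapped. By kallisto, Traf3 (7.63 TPM) and Tnfrsf19 (6.02 TPM) were above Eda2r (4.87 TPM) in replicate 2.

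The annotation gives Eda2r 4 transcripts, and each was given reads in replicate 1 by both quantifiers. Eda2r-201, a coding transcript of 4752 bases with 297 codons, held 55.2% of the gene's TPM in replicate 1 and 59.1% in replicate 2 by RSEM, and 70.6% and 71.0% by kallisto. The other coding transcript, Eda2r-202, has the same 297 codons in 1433 bases. It was at 1.74 and 0 TPM by RSEM and at 3.70 and 0.668 TPM by kallisto. The retained-intron transcripts Eda2r-203 and Eda2r-204 together took 38.4% and 40.9% of the TPM by RSEM, and 16.3% and 15.3% by kallisto. Within each quantifier the coding share of TPM was thus close to the same in both libraries, at 61.6% and 59.1% by RSEM and 83.7% and 84.7% by kallisto, while the level of the gene was not. Counts are not scaled for transcript length. By RSEM the coding transcripts held 2101.6 of the 2413 expected counts in replicate 1 and 426.66 of 504 in replicate 2.

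**Figure D2:**
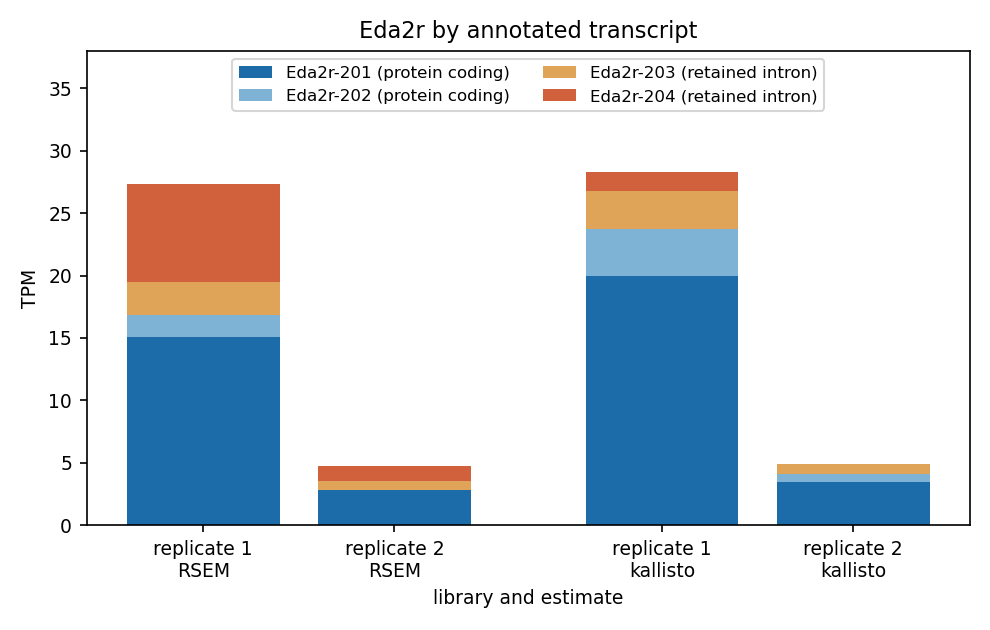
Eda2r level in TPM, stacked by annotated transcript, for replicates 1 and 2 by RSEM (left pair of bars) and by kallisto (right pair); blue shades are coding transcripts and warm shades are retained-intron transcripts. Bars reach 27.3 and 4.74 TPM by RSEM and 28.3 and 4.87 TPM by kallisto, and the retained-intron part is larger by RSEM, at 38.4% and 40.9%.

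The 300-base window around the RefSeq start of Eda2r (GRCm38.p6, 250 bases before the start to 50 after) held no match to the 10-base NF-kB consensus on either strand. The start of Eda2r is shown because it is the gene whose level differed most. It has a TATAAA motif, in capitals below, whose first base lies 58 bases before the start, on the strand of the gene. On either strand, TATAAA occurs in 13.6% of 32851 such windows.
Eda2r, chrX:97377250-97377279, minus strand: cactcccagactTATAAAatggtccaatag

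Eda, the ligand (ENSMUSG00000059327.9, chromosome X, 99975606 to 100400762, plus strand), was low in both libraries. It stood at 0.80 TPM in replicate 1 (80 counts) and 0.62 TPM in replicate 2 (93 counts), and RSEM's intervals of 0.734 to 1.64 and 0.655 to 1.31 TPM overlapped. The TPM of replicate 2 lay below its own interval. RSEM's posterior mean for that library, an average over read assignments, was 0.96 TPM and lay inside it. The ratio of replicate 2 over replicate 1 was 1.14, with a counting interval of 0.836 to 1.56 that spans 1. This ratio of counts ran the other way from the TPM, which also depends on the transcripts that reads were assigned to. Its log2 ratio of 0.18 turned to -0.0341 when the libraries were scaled by spike-in totals. Kallisto gave 0.928 and 0.910 TPM. Among 18 TNF superfamily ligands, Eda was number 3 in both libraries by RSEM (number 4 in replicate 1 by kallisto), behind Tnfsf12 (TWEAK) at 3.79 and 3.25 TPM and Tnfsf10 (TRAIL) at 2.96 and 1.13 TPM.

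The splice forms of Eda decide which receptor it binds, so their sequences are shown at the exon end that tells them apart. The longer end of this coding exon, at chromosome X position 100395149, adds the 6 bases in capitals, and 3 annotated coding transcripts use it, among them Eda-206 with 391 codons, the length of the A1 form. The shorter end, at 100395143, lacks them, as the A2 form does, and 5 coding transcripts use it. Eda-205 (386 codons) joins it to the same next exon at 100396905, and its copy of the exon also starts 9 bases later. Eda-203 (351 codons) joins it to another exon at 100395675. Each sequence runs from position 100395108 to the exon end and then 18 bases into the next coding exon.
Eda-206: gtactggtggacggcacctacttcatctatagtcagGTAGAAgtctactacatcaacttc
Eda-205: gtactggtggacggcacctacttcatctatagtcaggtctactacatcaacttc
Eda-203: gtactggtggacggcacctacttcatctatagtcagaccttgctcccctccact

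Most of the Eda coding estimate went to transcripts with the shorter exon end. RSEM assigned them 0.50 and 0.52 TPM, or 83.3% and 83.9% of the coding TPM, from 64.4 and 77.8 expected counts. Kallisto assigned them 100% and 83.4%. This is not a share of the A2 form alone, since it includes the 351-codon transcripts that join another exon. By RSEM, Eda-202 was at 0 and 0.03 TPM, Eda-203 at 0.13 and 0 TPM and Eda-204 at 0.06 and 0.04 TPM. Kallisto gave Eda-203 0.189 and 0 TPM, and Eda-204 0.213 and 0.103 TPM. The transcripts with the 6 bases had 0.10 TPM in each library by RSEM, and 0 and 0.129 TPM by kallisto. RSEM's posterior means, which average over assignments, gave the shorter end 63.2% and 67.1%. These shares rest on the 80 and 93 counts of the whole gene, and the files do not give the number that cross the junction. The split within the shorter end was not stable: in replicate 2 RSEM gave Eda-208 0.45 TPM and Eda-205 0, while kallisto gave Eda-205 0.543 TPM and Eda-208 0.000781 TPM.

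Edar, the receptor of the A1 form (ENSMUSG00000003227.4, chromosome 10, 58600789 to 58675654, minus strand), had 3 counts in replicate 1 and 1 in replicate 2. This is 0.03 and 0.01 TPM, at or under the limit that a count of 0 allows, so no ratio is given. Its adaptor Edaradd had 1 and 0 counts. Tnfrsf19 (TROY), a receptor related to Edar (ENSMUSG00000060548.13, chromosome 14, 60963875 to 61046490, minus strand), went the other way from Eda2r. It was at 3.28 TPM in replicate 1 and 4.72 TPM in replicate 2, from 313 and 527 counts. That is 1.65-fold higher in replicate 2 (counting interval 1.43 to 1.90), and kallisto gave 4.29 and 6.02 TPM. The coding transcripts Tnfrsf19-201 and Tnfrsf19-202, both with 416 codons, held most of it, at 1.36 and 2.32 TPM and at 1.19 and 1.53 TPM.

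Set among 25 TNF receptor superfamily genes, Eda2r had the highest level in replicate 1 and was number 6 in replicate 2. In replicate 1 it took 30.9% of their summed TPM, ahead of Tnfrsf12a (Fn14, the TWEAK receptor) at 23.9%, and in replicate 2 the shares were 8.92% and 16.1%. By kallisto Tnfrsf12a was above Eda2r in replicate 1 too, at 39.2 against 28.3 TPM. Tnfrsf12a was itself 2.26-fold lower in replicate 2 (counting interval 1.94 to 2.64), at 21.2 and 8.58 TPM. Tnfrsf21 (8.43 and 8.08 TPM), Tnfrsf1a (7.99 and 7.28 TPM) and Ltbr (7.09 and 6.68 TPM), the last of these the lymphotoxin receptor that signals through NIK, were near level. Tnfrsf19 was number 7 in both libraries by RSEM.

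**Figure D3:**
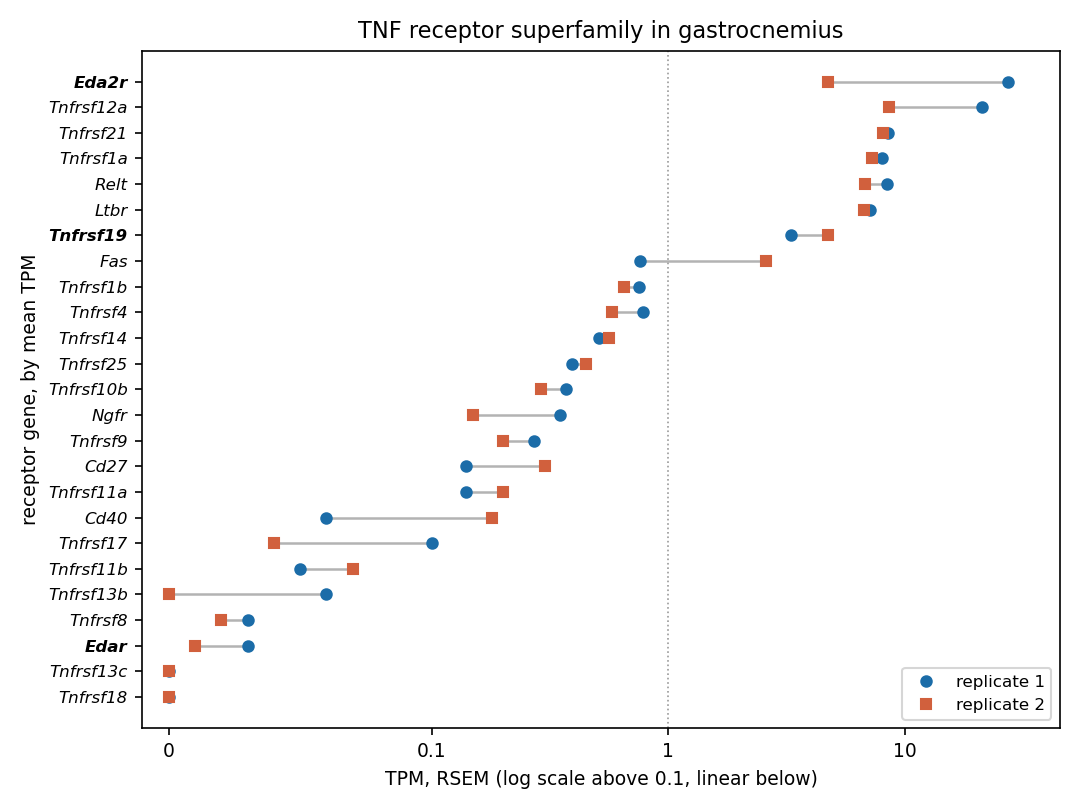
TPM of 25 TNF receptor superfamily genes in replicate 1 (blue circles) and replicate 2 (orange squares), ordered by mean TPM, with the axis logarithmic above 0.1 and linear below; members described here are in bold. Among the genes at the top, Eda2r (27.3 and 4.74 TPM) and Tnfrsf12a (21.2 and 8.58 TPM) are lower in replicate 2, Fas (0.76 and 2.59 TPM) is higher, and Edar lies at 0.03 and 0.01 TPM.

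Of the 22 other receptors, 5 reached 1 TPM in each library, and 9 had enough counts for a ratio (a summed count of at least 50). Fas, the death receptor, was 3.20-fold higher in replicate 2 (counting interval 2.11 to 4.99), at 0.76 and 2.59 TPM. Ngfr, the low-affinity neurotrophin receptor, had a log2 ratio of -1.03 on 34 and 16 counts. Tnfrsf13c, the BAFF receptor, and Tnfrsf18 had no counts by RSEM, and Cd40 had 1 and 6. Tnfrsf4 (OX40), a receptor of T cells, was at 0.78 and 0.58 TPM, and Tnfrsf14 at 0.51 and 0.56 TPM (1.53 and 2.06 TPM by kallisto). Of the 17 other ligands, 2 reached 1 TPM in both libraries, Tnfsf12 and Tnfsf10, and Tnfsf10 was 2.78-fold lower in replicate 2 (counting interval 2.30 to 3.36). Tnfsf13b, the ligand BAFF, was at 0.63 and 0.44 TPM.

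Traf3, the adaptor that restrains NIK (ENSMUSG00000021277.16, chromosome 12, 111166370 to 111267153, plus strand), was higher in replicate 2. It was at 3.84 TPM from 601 counts in replicate 1 and 4.77 TPM from 921 counts in replicate 2, a log2 ratio of 0.58 after TMM scaling, with a counting interval for the fold of 1.35 to 1.67. RSEM's intervals of 3.33 to 4.82 and 4.29 to 5.66 TPM overlapped. Kallisto gave higher levels that lay closer together, 7.18 and 7.63 TPM. The coding transcript Traf3-201 (567 codons) held 75.5% and 83.2% of the TPM by RSEM and 48.3% and 58.8% by kallisto. Kallisto placed 2.74 and 2.34 TPM on Traf3-204, a coding transcript of 645 bases, against 0.84 and 0.80 TPM by RSEM.

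Map3k14, which encodes NIK (ENSMUSG00000020941.7, chromosome 11, 103219762 to 103267472, minus strand), was lower in replicate 2. It was at 2.78 TPM from 305 counts and 1.41 TPM from 172 counts, with RSEM intervals of 2.49 to 3.44 and 1.25 to 2.12 TPM that did not overlap. After TMM scaling it was 1.81-fold lower (counting interval 1.497 to 2.19), a log2 ratio of -0.85, short of 2-fold. Under spike-in totals the log2 ratio was -1.07, past 2-fold. The coding transcript Map3k14-201 (942 codons) held 82.4% and 84.4% of the TPM by RSEM, and 77.2% and 60.7% by kallisto.

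Nfkb2, which encodes p100 (ENSMUSG00000025225.15, chromosome 19, 46304320 to 46312385, plus strand), was also lower in replicate 2, at 5.71 TPM from 493 counts against 3.36 TPM from 328 counts. It was 1.53-fold lower (counting interval 1.33 to 1.77), and kallisto gave 6.90 and 4.04 TPM. The coding transcripts took 91.3% and 96.7% of its TPM by RSEM, but the quantifiers divided them differently. Nfkb2-201, Nfkb2-202 and Nfkb2-204 have the same 899 codons. RSEM placed 1.44 and 1.75 TPM on Nfkb2-201 and 1.73 and 1.36 TPM on Nfkb2-202, while kallisto placed 0 and 0.311 TPM on the former and 5.21 and 3.10 TPM on the latter.

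Relb, the partner of p52 (ENSMUSG00000002983.17, chromosome 7, 19606217 to 19629438, minus strand), was lower in replicate 2 by less than Map3k14 and Nfkb2 were. It was at 4.31 TPM from 234 counts in replicate 1 and 2.94 TPM from 185 counts in replicate 2, 1.29-fold lower after TMM scaling (counting interval 1.06 to 1.57). RSEM's intervals of 3.93 to 5.32 and 2.70 to 3.78 TPM did not overlap, and kallisto gave 5.30 and 3.68 TPM. By RSEM, Relb-202 (558 codons) held 81.9% and 78.2%. Kallisto gave 84.5% to Relb-203, also of 558 codons, in replicate 1 and 68.7% to Relb-202 in replicate 2, so which of these near-identical coding transcripts is present cannot be told from the files.

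Nfkb2 and Relb are themselves known as targets of NF-kB, so the promoter windows of the members were searched for the 10-base NF-kB consensus on both strands. RefSeq windows were matched for 7 of the 8 genes, 10 windows in all. None was matched for Relb, so its promoter was not searched. The consensus occurred in 8.46% of all 32851 windows. Among the members searched it occurred in those of Nfkb2, in all 3 of its windows, and of Traf3. The later windows of Nfkb2 overlap, and the same match, the last of Nfkb2 below, lies in each of them. A match is a description of the letters, not a bound site. The matches on the strand of the gene are shown in capitals with 10 bases on either side. The first begins 39 bases before one start of Nfkb2 and reads the same on both strands, with a further match shifted by 1 base on the minus strand. The next begins 11 bases before that start. Another begins at base 11 counted from a later start of Nfkb2, and 225 bases before the last start. A separate match, on the minus strand only and not shown, begins 236 bases before that later start. The match of Traf3 begins 10 bases before its start.
Nfkb2, chr19:46304688-46304717, plus strand: ggatcgtcacGGGAATTCCCcccctcgggg
Nfkb2, chr19:46304716-46304745, plus strand: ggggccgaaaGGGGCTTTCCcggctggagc
Nfkb2, chr19:46305695-46305724, plus strand: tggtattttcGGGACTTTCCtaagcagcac
Traf3, chr12:111166350-111166379, plus strand: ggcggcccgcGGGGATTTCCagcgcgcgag

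Nfkb2 and Traf3, the members with these matches, lay on opposite sides of 0, at log2 ratios of -0.61 and 0.58. Of the 7 members with a ratio, 3 were above 0 and 4 below, with a median log2 ratio of -0.37, against -0.001 over all 12969 genes tested. Only Eda2r was past 2-fold, 1 of 7 members, where 4.64% of all tested genes were past it in either direction, 1.94% lower in replicate 2 and 2.7% higher. Since the genes were listed with the value of Eda2r known, nothing is read from this count. Ordered by ratio over all tested genes, Eda2r was number 25 from the lowest of 12969. The central 95% of tested genes ran from -0.88 to 1.05, and the other 6 members lay within it under TMM scaling. The shift of all genes between scalings bears on the small ratios, since spike-in totals moved the median of all genes to -0.22. Eda is the member whose sign turned with it.

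**Figure D4:**
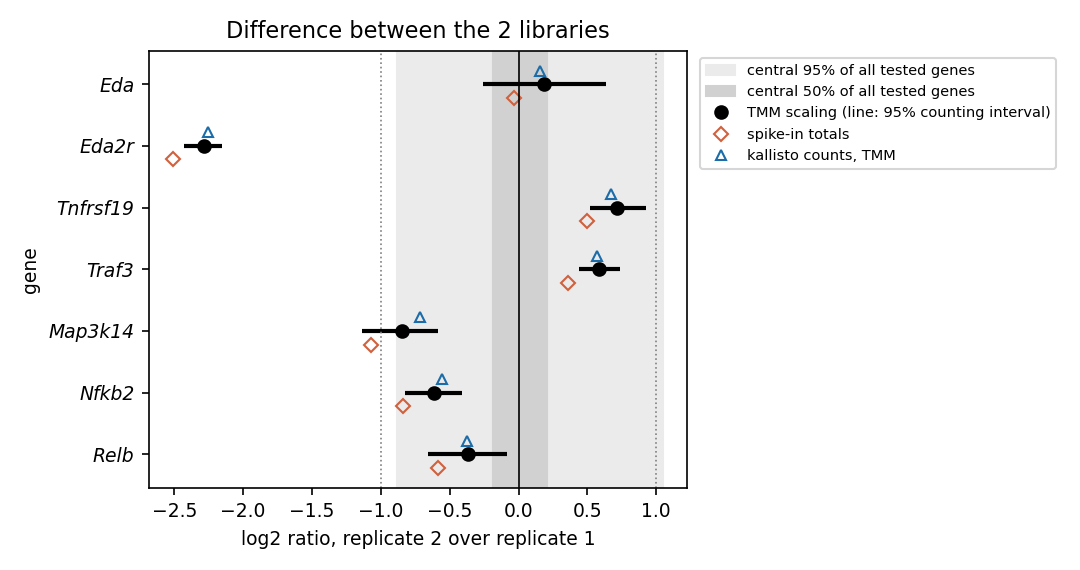
Log2 ratio of replicate 2 over replicate 1 for the 7 members with a summed count of at least 50, after TMM scaling with the 95% counting interval (black), under spike-in totals (orange diamonds) and from kallisto counts (blue triangles), over grey bands for the central 50% and 95% of all tested genes. Eda2r lies at -2.28, outside the band that runs from -0.88 to 1.05, and dotted lines mark 2-fold.

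The 5 protein-coding genes whose ratio lay nearest to that of Eda2r, among 10306 whose mean TPM was 1 or more, were Plekhh1 (-2.35), Tmem132b (-2.39), Mab21l1 (-2.11), Pamr1 (-2.06) and Hpgd (-2.54). With 2 libraries this likeness is a likeness of 1 ratio. Eda2r was among the 10 lowest ratios of these 10306 genes, and the highest level among the 5 was that of Pamr1, at 13.2 and 2.78 TPM.

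The other genes of the pathway were partly detected. Of all 55536 genes, 10943 reached 1 TPM in each library, and 31787 had no counts. These include pseudogenes and noncoding genes, so they are not a like set for the pathway lists. Of protein-coding genes alone, 51.1% had a lower TPM than Eda in replicate 1 (0.80 TPM). In replicate 2, 56.5% had a lower TPM than Map3k14 (1.41 TPM). Over the 6 lists of other receptors, ligands, adaptors, NIK regulators, NF-kB subunits and target chemokines, 37 of 83 genes reached 1 TPM in each library, and 7 had no counts. Of the 48 with a ratio, 2 were at least 2-fold higher in replicate 2 and 4 at least 2-fold lower, against 2.7% and 1.94% of all tested genes. Their median log2 ratio was -0.09. By sign, 17 were above 0 and 31 below, and spike-in totals moved this to 4 above and 44 below.

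The partners of Traf3 and NIK lay closer to level than Map3k14 did. They also lay closer than Traf3 (log2 ratio 0.58) under TMM, but not under spike-in totals, where Traf3 was at 0.36, Birc2 at -0.41, Birc3 at -0.58 and Chuk at -0.42. Traf2, the adaptor that bridges Traf3 to the ubiquitin ligases, was at 6.77 and 6.02 TPM (log2 ratio -0.01). Birc2 and Birc3, the ligases themselves, were at log2 ratios of -0.19 and -0.36, with Birc3 at 5.64 and 4.53 TPM. Chuk, the kinase that NIK activates, was at 7.74 and 5.24 TPM (-0.20). Of the 12 genes in this list, 11 reached 1 TPM in each library and none was past 2-fold. The highest were Usp9x (68.2 and 56.4 TPM), a deubiquitinase, and Otud7b (30.0 and 25.5 TPM), which removes ubiquitin from Traf3, then Otub1 (26.2 and 22.2 TPM). Of the 13 adaptors, 9 reached 1 TPM in each library and none was past 2-fold, led by Tab2 (50.2 and 49.5 TPM), the kinase Map3k7, known as TAK1 (18.9 and 17.6 TPM), and Traf7 (15.3 and 11.3 TPM). Traf6, used by the Edar pathway, was at 4.96 and 4.46 TPM.

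Of the 11 other NF-kB subunits and inhibitors with a ratio, 3 were above 0 and 8 below, with a median log2 ratio of -0.24. Under spike-in totals 2 were above 0 and 9 below. Nfkb1 (10.3 and 7.48 TPM, log2 ratio -0.25) and Rela (8.07 and 6.41 TPM, -0.24), canonical subunits, were somewhat lower in replicate 2. Their counting intervals for replicate 2 over replicate 1 were 0.77 to 0.92 and 0.75 to 0.96. Rel, the canonical subunit c-Rel, differed by more: it was at 3.15 and 1.55 TPM, 1.83-fold lower in replicate 2 (counting interval 1.61 to 2.08). Nfkbia, which encodes the inhibitor I kappa B alpha and is itself induced by NF-kB, was 2.38-fold higher in replicate 2 (counting interval 2.15 to 2.64), at 14.1 and 27.9 TPM. Bcl3, a nuclear relative of the inhibitors, had 40 and 10 counts and a log2 ratio of -1.83. By mean TPM the next highest after Nfkbia were Tnip1 (18.2 and 15.7 TPM) and Nkiras1 (16.0 and 15.6 TPM). Of the chemokines that the noncanonical pathway is known to induce, Cxcl12 was at 21.2 and 17.3 TPM and Ccl21a at 6.40 and 4.13 TPM, while Icosl, a ligand that costimulates T cells, was at 0.76 and 0.58 TPM.

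Eda2r is a known p53 target, so the list of p53 and its targets was set beside it. The list holds Eda2r itself, which is counted in what follows. Of its 25 genes, 19 reached 1 TPM in each library, and 21 had a ratio, with a median log2 ratio of 0.08. Their signs were 12 above 0 and 9 below, or 5 and 16 under spike-in totals. Plk2, a kinase, was 2.41-fold lower in replicate 2 (counting interval 1.86 to 3.14), and with Eda2r it was the only one at least 2-fold lower. Ddit4 (log2 ratio 3.93), Trp53inp1 (1.41) and Btg2 (1.18) were at least 2-fold higher. Of all tested genes, 2.7% were at least 2-fold higher and 1.94% at least 2-fold lower. Trp53 and Cdkn1a, the p21 cell cycle inhibitor, both had a log2 ratio of -0.72, at 10.7 and 5.64 TPM and at 50.5 and 27.7 TPM. The most abundant targets, Ccng1 (305 and 293 TPM) and Phlda3 (77.8 and 66.8 TPM), were near level, and Tigar was at 57.8 and 43.6 TPM.

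Markers of other states and cells were set beside the difference in Eda2r. Outside the slow fibre list, Runx1 and Cd68 were the only tested genes of these lists at least 2-fold apart. Of all tested genes, 4.64% were that far apart. The 9 genes of the denervated fibre list summed to 71.6 TPM in replicate 1 and 41.7 TPM in replicate 2, and 5 of the 7 with a ratio were below 0 (median -0.30). Runx1 was at 4.05 and 1.10 TPM and Gadd45a at 39.5 and 18.9 TPM, while Chrnd was higher in replicate 2 and Chrng was at 0.11 and 0.01 TPM. All 4 satellite cell genes were below 0, with a summed level of 4.01 and 2.47 TPM. The 5 Schwann cell genes summed to 34.98 and 25.3 TPM and the 5 endothelial genes to 54.3 and 40.1 TPM, with medians of -0.60 and -0.65. The 6 fibro-adipogenic genes summed to 434 and 414 TPM and the 5 macrophage genes to 12.8 and 12.2 TPM, with medians of 0.17 and 0.01. The 4 adipocyte genes summed to 11.4 and 13.8 TPM, and the 3 with a ratio were above 0 (median 0.43). Of the 5 macrophage genes, 3 were above 0 and 2 below. Cd68, the only one of them at least 2-fold apart, was 2.50-fold lower in replicate 2 (counting interval 1.46 to 4.44), on 49 and 20 counts. The 7 slow fibre genes were higher in replicate 2, where Eda2r was lower, as given above. The part of these cells and states in the difference in Eda2r, Map3k14, Nfkb2 or Relb was not tested.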

How the data were processed

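The authors deposited, per the file headers, expected counts per gene and transcript (the column names of RSEM, made from transcriptome alignments per the deposited notes) and estimated counts per transcript (those of kallisto, made from the reads). The TPM values deposited by the authors were used as given, and kallisto values were summed per gene. The deposited FPKM values and the deposited percent of each gene per transcript were not used, and the percents printed were computed from TPM. The notes name mm10 and GENCODE M21. The sources used here do not name the aligner, versions or use of strand in counting. Genes overlapping a member had at most 11 counts.

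Expected counts were rounded. Ratios are replicate 2 over replicate 1 of log2 CPM (prior count 2, edgeR 4.0.16, TMM) for genes whose counts in both libraries sum to 50 or more, and called means at least 2-fold. Counting intervals are exact binomial at 95% and cover counting error only, since reads are not independent molecules. With 2 libraries of 1 group no test of a difference was made. DESeq2 1.42.0 size factors were an alternative, and the ratio step was tested on simulated data. R 4.3.3 and Python 3.11.15 were used.

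The members, lists and rules were chosen with earlier results of these data known, and the slow fibre list was added after the data were seen. The named genes are the members, the 3 pathway genes of highest mean TPM in each pathway list, every pathway gene at least 2-fold apart, direct partners of a member (Edaradd, Traf2, Traf6, Birc2, Birc3, Chuk, Nfkb1, Rela), and the 5 genes nearest to Eda2r in ratio. Other genes named were chosen after their values were seen. Transcripts with at least 5% of their gene were considered. Promoter windows are from RefSeq on GRCm38.p6, and Eda sequences from the GENCODE M21 transcripts. No separate sequence of the CAST/EiJ alleles was used.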

Additional observations from a re-analysis of the deposited data

How the results depend on the processing

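The log2 ratio of Eda2r stayed below -1 under all 7 alternatives of scaling, count filter, prior count and quantifier. It was -2.51 under spike-in totals and -2.43 under total gene counts, beyond its counting interval, as these scalings moved the median of all genes from -0.001 to -0.222 and -0.149, and its range over all settings was -2.51 to -2.26. Eda turned from 0.18 to -0.0341 under spike-in totals. The signs of Tnfrsf19, Traf3, Map3k14, Nfkb2 and Relb did not turn. The mean level of Eda2r was 4.74 to 27.3 TPM when 1 library was left out. The 6 members at or above 1 TPM in both libraries were 6 by kallisto too and in each library alone, and 7 with a minimum of 0.5 or 0.1 TPM. The number of genes at least 2-fold apart was 602, or 194 with a summed count of at least 500, where fewer genes were tested (7870). Under TMM 350 were higher in replicate 2 and 252 lower, and under spike-in totals 244 and 440, and under total gene counts 273 and 350. By kallisto, the levels of Eda, Tnfrsf19, Map3k14 and Traf3 moved by more than their SD, and so did the top transcript's share of Eda2r, Map3k14, Nfkb2, Relb and Traf3. No paired analysis was possible because the labels give only 1 group. Depth limits Edar, Edaradd and the Eda splice forms.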
